A study of Rattus norvegicus with 10 samples.

Results

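The aryl hydrocarbon receptor and its target genes were followed in the livers of rats fed an instant noodle diet with or without its seasonings. The set held 6 genes: Ahr, which encodes the receptor, the cytochrome P450 genes Cyp1a1, Cyp1a2 and Cyp1b1, and Tiparp and Nqo1. Its members were all probe sets that the platform's gene table assigns to only 1 of these genes, which gave 8 probe sets of 31042 (controls left out), or 6 genes of 14217. The study used 10 male rats aged 13 weeks, 1 array per liver. The 5 seasoned animals (the N-group, numbered 1, 4, 7, 10 and 13) were fed for 30 days on chow containing instant noodle (30 wt%), with a fat-to-energy ratio of 26%. The 5 controls (the C-group, numbered 2, 5, 8, 11 and 14) ate the same diet without the seasonings. Rations were paired at roughly 60 g of diet per kg and day, lights were on for 12 h and off for 12 h, and the labels name no strain, no seasoning ingredient and no hour of sampling. Whole liver was measured, so fewer cells of a type and less RNA per cell cannot be told apart. The p-values measure the spread between animals.

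The aryl hydrocarbon receptor is a transcription factor that waits in the cytosol in a complex with HSP90 chaperones until a small molecule binds it. Known ligands include dioxins, products of smoke and char, plant indoles and breakdown products of tryptophan. The bound receptor enters the nucleus, pairs with ARNT and binds the xenobiotic response element (XRE), whose core is GCGTG. In liver it is best known for inducing the CYP1 family, with CYP1A2 made by hepatocytes even without an inducer, most of all near the central vein. TIPARP, an ADP-ribosyltransferase, is a target that dampens the receptor. NQO1, a quinone reductase, answers to the receptor and also to the stress factor NRF2.

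The 250 bases upstream of the start of 5 of the 6 genes were in the RefSeq promoter table of the GRCr8 assembly, which had no entry for Cyp1a1. The windows of the 3 genes with measurable variation are printed here 5′ to 3′ on the gene's strand, because the results turn on these genes. They are chr8:66978150-66978399 (minus strand), chr19:52220268-52220517 (minus strand) and chr2:152063519-152063768 (plus strand), and capitals mark XRE cores, searched on both strands as GCGTG.
Cyp1a2: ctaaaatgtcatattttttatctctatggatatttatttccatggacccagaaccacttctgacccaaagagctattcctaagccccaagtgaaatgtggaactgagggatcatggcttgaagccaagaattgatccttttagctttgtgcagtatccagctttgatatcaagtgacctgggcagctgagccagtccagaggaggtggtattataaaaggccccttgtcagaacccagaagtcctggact
Nqo1: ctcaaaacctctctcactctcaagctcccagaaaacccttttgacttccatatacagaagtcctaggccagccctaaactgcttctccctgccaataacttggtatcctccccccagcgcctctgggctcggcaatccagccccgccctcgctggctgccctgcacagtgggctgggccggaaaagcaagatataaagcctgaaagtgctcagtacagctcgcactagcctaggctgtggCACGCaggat
Tiparp: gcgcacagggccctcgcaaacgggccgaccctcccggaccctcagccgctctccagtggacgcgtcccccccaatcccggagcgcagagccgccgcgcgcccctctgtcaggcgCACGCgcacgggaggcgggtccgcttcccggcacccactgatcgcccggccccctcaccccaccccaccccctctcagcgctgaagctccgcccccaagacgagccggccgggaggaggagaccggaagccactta
The Nqo1 window held 1 core, 10 to 6 bases before the start, and the Tiparp window 1 core, 136 to 132 bases before it, both on the other strand. The Cyp1a2 window held 0. Of the windows not printed, Cyp1b1 held 2 cores and Ahr 0. Cores are common, since 25.9% of 33469 upstream windows of this length held at least 1. The core of the antioxidant response element that NRF2 binds, TGACNNNGC on either strand, was in 0 of the 5 windows and in 10.1% of all windows. These windows are short, and say nothing of elements farther upstream.

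Most deposited signals hardly moved between livers, and the members were divided between those that did and those that did not. Of all probe sets, 87.0% had an SD at or under 0.01 log2 units over the 10 livers and are called near-constant here. The other 4050 are called varying. Ahr (both probe sets), Cyp1a1 and Cyp1b1 were near-constant, while Cyp1a2, Nqo1 and both probe sets of Tiparp varied.

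**Figure D1:**
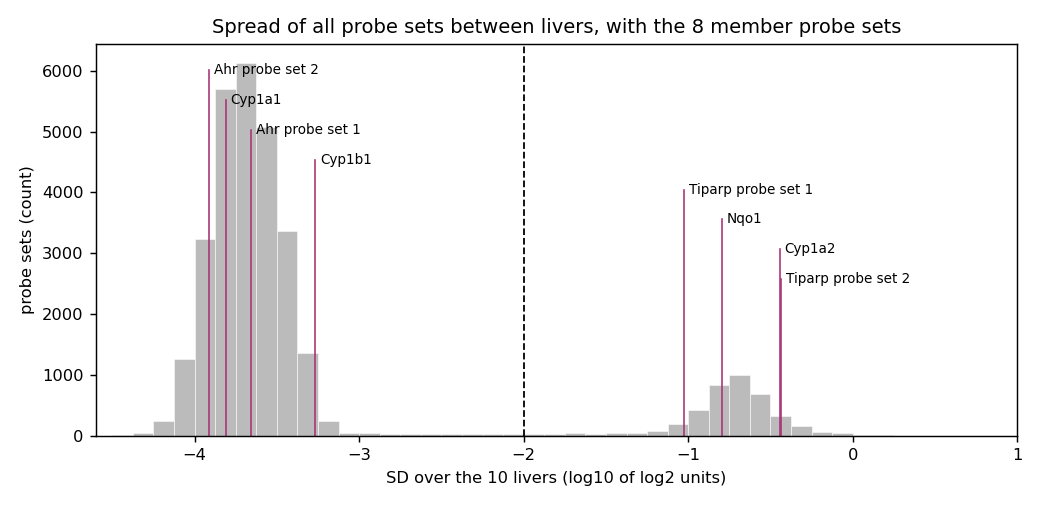
Histogram of the SD of each probe set over the 10 livers (x axis, log10 of log2 units; y axis, number of probe sets). The dashed line is the SD of 0.01 that parts near-constant from varying probe sets, and vertical lines mark the 8 member probe sets, 4 on each side.

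The receptor itself gave no measurable difference between the livers. The Ahr probe sets lay at 6.48 and 6.17 log2 units in every liver, with SDs over the 10 livers of 0.00022 and 0.00012. Cyp1a1, the enzyme whose induction is the usual readout of receptor activity, lay at 6.13 in every liver (SD 0.00015). Cyp1b1, a related enzyme found mostly outside hepatocytes, lay at 6.78 (SD 0.00054). The array medians lay between 6.47 and 6.48. How these values were summarised is not given in the labels, so a near-constant value shows neither that a gene was silent nor that it did not respond. The first Ahr probe set shows why its test is not read: a seasoned minus control difference of 0.00030 log2 units had an unadjusted p of 0.0199 by limma. Such p-values under 0.05 occurred in 3.27% of near-constant probe sets.

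Cyp1a2, which oxidises caffeine, aromatic amines and oestrogens, had higher signals with the seasoned diet. The seasoned livers were at 10.95 (animal 1), 10.88 (4), 10.69 (7), 10.58 (10) and 10.65 (13) log2 units. The controls were at 10.23 (animal 2), 10.40 (5), 10.22 (8), 10.74 (11) and 9.77 (14). Every seasoned liver lay above 4 of the 5 controls, and only control animal 11 lay within their range. The means were 10.75 ± 0.16 (SD, n = 5) and 10.27 ± 0.35 (n = 5), a log2 difference of 0.48 ± 0.17 (SE), or 1.39-fold with a 95% interval of 1.07 to 1.81. The unadjusted p was 0.0195 by limma and 0.0317 by exact permutation of the diet labels (two-sided), which cannot give a p below 0.00794. After Benjamini-Hochberg adjustment over all 31042 probe sets the limma p was 0.935, so the difference did not pass.

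Nqo1, which reduces quinones to hydroquinones, had a smaller difference of the same sign. The seasoned livers were at 8.71 (animal 1), 8.67 (4), 8.83 (7), 8.56 (10) and 8.63 (13). The controls were at 8.46 (animal 2), 8.35 (5), 8.56 (8), 8.69 (11) and 8.34 (14). The groups overlapped, with controls 8 and 11 among the seasoned livers and the other 3 controls below them all. The means were 8.68 ± 0.10 and 8.48 ± 0.15 (SD, n = 5 each), a log2 difference of 0.20 ± 0.08 (SE), or 1.15-fold with a 95% interval of 1.01 to 1.30. The unadjusted p was 0.0344 by limma (adjusted p = 0.9997) and 0.0556 by the exact permutation test.

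Tiparp had lower signals with the seasoned diet. On its first probe set, the seasoned livers were at 7.81 (animal 1), 7.83 (4), 7.76 (7), 7.77 (10) and 7.74 (13). The controls were at 7.87 (animal 2), 7.90 (5), 7.98 (8), 8.03 (11) and 7.81 (14). Only control 14 lay in the range of the seasoned livers, and 4 of these lay below all controls. The means were 7.78 ± 0.04 and 7.92 ± 0.09 (SD, n = 5 each), a log2 difference of -0.13 ± 0.04 (SE), or 1.10-fold lower. The unadjusted p was 0.0104 by limma (adjusted p = 0.850) and 0.0159 by the exact permutation test.

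The second Tiparp probe set had a difference of the same sign with a wider spread. The seasoned livers were at 6.27 (animal 1), 6.33 (4), 6.67 (7), 6.61 (10) and 6.11 (13). The controls were at 6.36 (animal 2), 6.44 (5), 7.14 (8), 7.24 (11) and 6.57 (14). Controls 8 and 11 were the highest livers on both Tiparp probe sets. The log2 difference was -0.35 ± 0.21 (SE; n = 5 per group), with a 95% interval of -0.82 to 0.12 and an unadjusted p of 0.123 by limma (adjusted p = 0.9997).

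**Figure D2:**
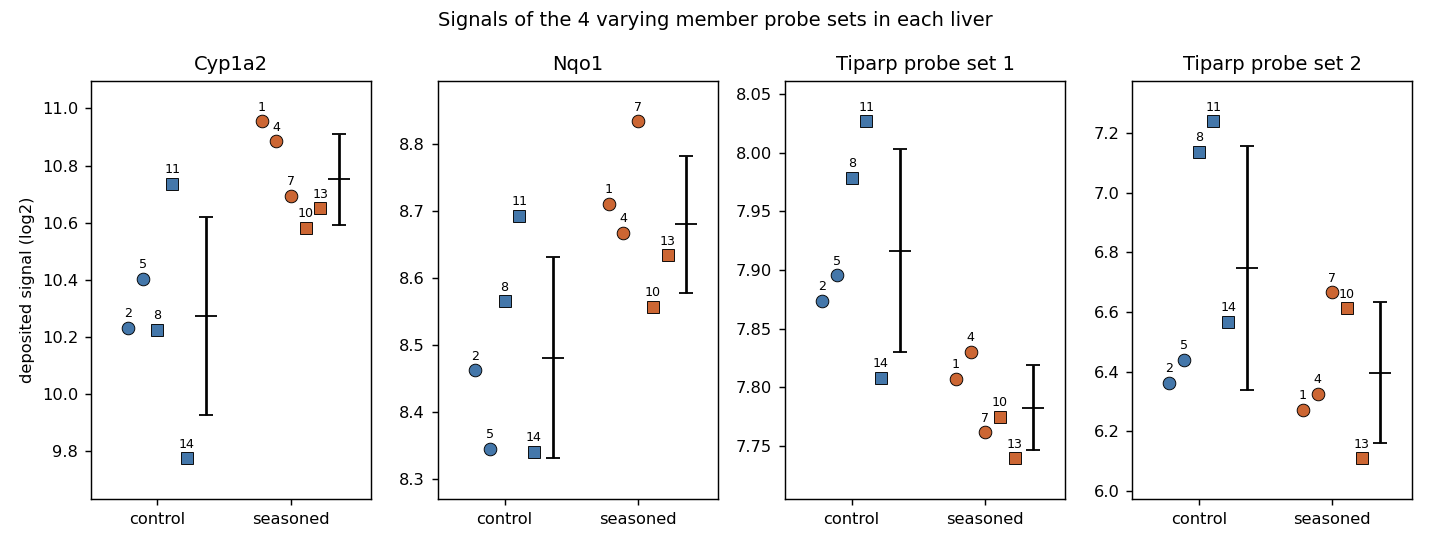
Deposited log2 signals of the 4 varying member probe sets in each liver (points, labelled by animal number; circles, animals 1 to 7; squares, animals 8 to 14), with the group mean and SD (bar, n = 5) beside them. Seasoned livers lie mostly above the controls for Cyp1a2 and Nqo1 and below them for Tiparp, and control animal 11 lies high in all panels.

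None of the members was called after adjustment, and limma called 0.0% of all probe sets (0 of 31042), while 1390 were at an unadjusted p under 0.05. At that unadjusted p stood 3 of the 4 varying member probe sets, 2 of them higher with the seasoned diet (Cyp1a2 and Nqo1) and 1 lower (Tiparp). Among all varying probe sets the share was 12.5%, with 6.69% higher and 5.85% lower, and over all probe sets it was 4.48%, with 2.56% higher and 1.92% lower. In the fit of varying probe sets alone it was 12.9%. The share over all probe sets also counts near-constant ones, and 1 of the 4 near-constant member probe sets (Ahr) was at that p. The members were chosen with earlier results of these data known, so their count is a description and no test of the set. Groups that did not overlap occurred in 0 of the 4 varying member probe sets, against 2.99% of varying and 0.77% of all probe sets. The median log2 difference was 0.03 over the 4 and 0.01 over all varying probe sets. The measurable targets did not share a sign: the differences of Cyp1a2 and Nqo1 were positive and those of Tiparp negative. In a fit of the 4050 varying probe sets alone, limma called 0.321% of them, and the members had adjusted p-values of 0.203 (Cyp1a2), 0.339 (Nqo1), 0.334 and 0.507 (Tiparp).

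Several livers set the size of these differences. Without control 11, the log2 difference was 0.59 ± 0.14 (SE) for Cyp1a2 and 0.25 ± 0.07 for Nqo1, with adjusted p-values of 0.466 and 0.607 by limma. The first and second Tiparp probe sets were then at -0.11 ± 0.03 and -0.23 ± 0.19, so the second was nearer to 0 by over 1.5 times. Control 14 was the lowest liver for Cyp1a2 and Nqo1. Without it the differences were 0.35 ± 0.13 for Cyp1a2, 0.16 ± 0.08 for Nqo1 (unadjusted p = 0.0786 by limma) and -0.16 ± 0.04 and -0.40 ± 0.23 for Tiparp. Nqo1 did not depend on control 14 alone. Its unadjusted p by limma was also over 0.05 without seasoned 1, 4 or 7, or without control 2 or 5. It was under 0.05 without seasoned 10 or 13, or without control 8 or 11.

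The animals with lower and higher numbers gave the same sign for Cyp1a2, Nqo1 and the first Tiparp probe set. This parting of animals 1 to 7 from animals 8 to 14 was found in earlier work on these data, not in the labels. For Cyp1a2 the difference was 0.53 within animals 1 to 7 (3 seasoned, 2 control) and 0.37 within animals 8 to 14 (2 seasoned, 3 control). For Nqo1 it was 0.33 and 0.06. For the first Tiparp probe set it was -0.08 and -0.18. For the second it was 0.02 ± 0.15 (SE), which cannot be told from 0, and -0.62 ± 0.31. None of these within-set differences was shown to differ between the sets: the interaction was -0.27 ± 0.15 (SE) for Nqo1 (adjusted p = 0.824 by limma over all probe sets) and -0.64 ± 0.35 for the second Tiparp probe set (adjusted p = 0.821). When the set was fitted as a block, Nqo1 differed by 0.20 ± 0.09 (unadjusted p = 0.0524 by limma) and Cyp1a2 by 0.45 ± 0.17 (unadjusted p = 0.0333). Each description ends in a code that the labels do not explain. Its letter is A for every seasoned liver and B for every control, so whatever it marks and the diet cannot be told apart.

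**Figure D3:**
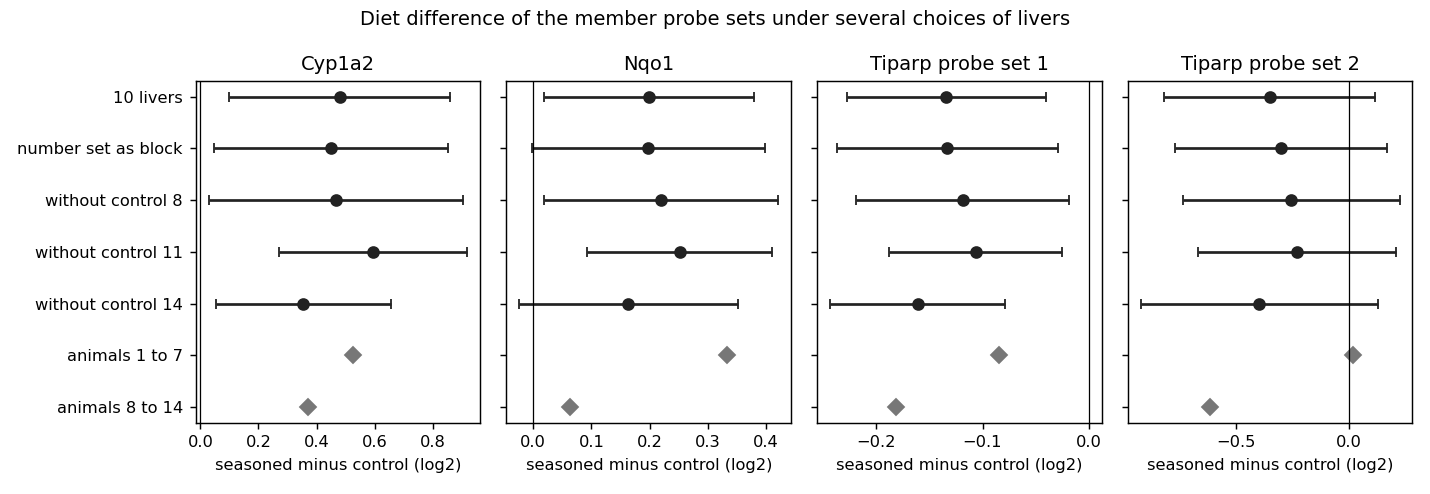
Seasoned minus control log2 difference (x axis) of the 4 varying member probe sets in all 10 livers, with the number set fitted as a block and without 1 control (points with 95% intervals), and within each number set (diamonds, no interval drawn). Cyp1a2 keeps its positive sign and the first Tiparp probe set its negative sign in each line. The second Tiparp probe set lies close to the zero line within animals 1 to 7 and below it elsewhere.

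Relations between the members within the diets did not pass adjustment. Of 6 relations between the 4 varying probe sets, each centred on its diet's mean over the 10 livers, all had a positive Pearson r, from 0.299 to 0.829. The highest joined Cyp1a2 and the first Tiparp probe set, with a Spearman rho of 0.707. Its exact permutation p within the diets was 0.0185 for r and 0.0385 for rho, or 0.111 and 0.116 adjusted over the 6 relations, so it did not pass. Without the 2 livers farthest from the Cyp1a2 median, controls 14 and 8, r was 0.900, and centred on diet and number set it was 0.906 (exact permutation p = 0.0764). Cyp1a2 and Nqo1 had an r of 0.604 and a rho of 0.726 (exact permutation p = 0.123 and 0.0349, adjusted p = 0.147 and 0.116), and an r of 0.587 without the same 2 livers and of 0.658 centred on diet and number set. The 2 Tiparp probe sets, which measure the same gene, had an r of 0.675 (rho 0.241, exact permutation p = 0.110, adjusted p = 0.147) that was -0.188 without controls 8 and 11, so it rests on those livers. The same holds for both probe sets of Tiparp with Nqo1: r was 0.692 for the first and 0.688 for the second (rho 0.492 and 0.432, exact permutation p = 0.0658 and 0.0706, adjusted p = 0.141 for both), and without controls 8 and 11 it was 0.083 and 0.123. All of these values share the arrays and their normalization.

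The genes with the pattern most like each member were taken from 1460 probe sets with an SD over 0.2, by Pearson r over all 10 livers, as a description. For Cyp1a2 they were Dapk1 (r = 0.899), a kinase gene of cell death, Clpx (0.875), the unfoldase of a mitochondrial protease, and Bmal1 (0.846), the core activator of the circadian clock. For Nqo1 they were Mthfd1 (0.878), an enzyme of folate metabolism, Cdkn1a (0.835), a cell cycle inhibitor, and Xpc (0.831), a DNA damage sensor. For Tiparp they were Jun (0.880), an immediate early transcription factor, Rnf39 (0.866) and Nipal1 (0.856). These r values pool both diets, so a shared diet difference adds to them. Centred on each diet's mean, r was 0.787, 0.733 and 0.671 for Dapk1, Clpx and Bmal1. It was 0.789, 0.739 and 0.685 for Mthfd1, Cdkn1a and Xpc, and 0.849, 0.715 and 0.849 for Jun, Rnf39 and Nipal1.

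The clock genes were read beside Cyp1a2 in each liver, since Bmal1 was among its nearest patterns. Bmal1 was at 7.72, 7.74, 7.72, 6.92 and 7.27 in seasoned animals 1, 4, 7, 10 and 13. It was at 6.21, 6.24, 6.08, 6.90 and 6.23 in control animals 2, 5, 8, 11 and 14. Control 11, the control nearest the seasoned livers in Bmal1, was also the control with the highest Cyp1a2 and Nqo1. Dbp, a clock output factor, was at 7.28 in control 11 against 9.08 to 9.43 in the other controls and 5.94 to 7.05 in seasoned livers. Jun was at 8.24 and 8.30 in controls 8 and 11, the livers with the highest Tiparp, and between 7.02 and 7.79 in the other livers. The part of the clock genes or of Jun in the members' differences was not tested.

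**Figure D4:**
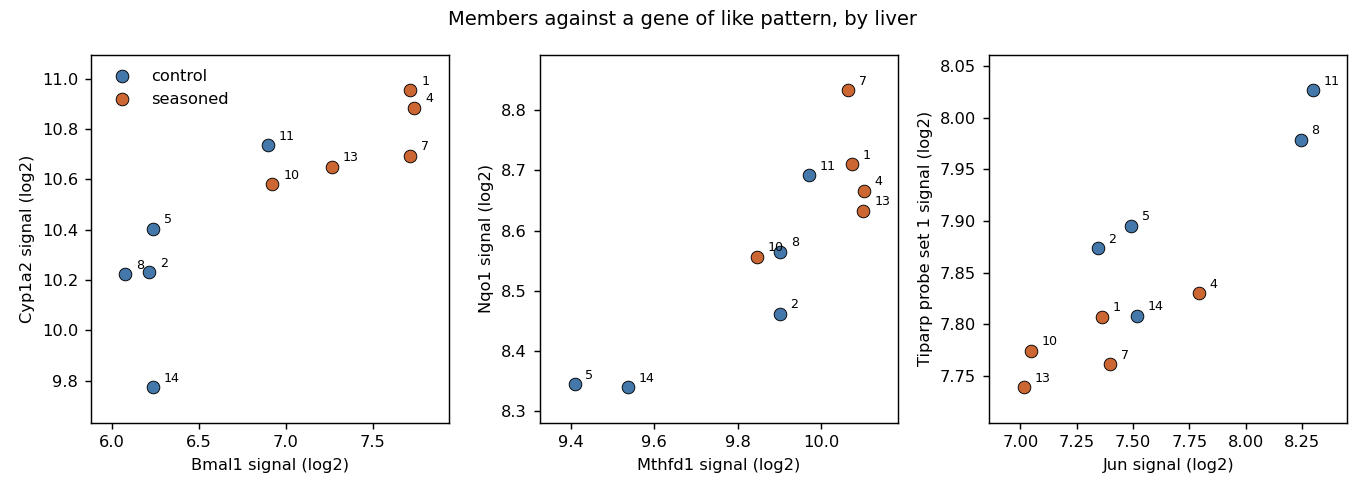
Log2 signal of a member (y axis) against that of a gene of like pattern (x axis) in each liver (points, labelled by animal number): Cyp1a2 against Bmal1, Nqo1 against Mthfd1, and the first Tiparp probe set against Jun. Control animal 11 lies beside the seasoned livers in the first 2 panels and at the top right in the third.

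The partners of the receptor were for the most part near-constant. Of the 7 genes of the receptor complex and its repressor, 5 had a probe set of their own: the partner Arnt, its relative Arnt2, the cochaperone Ptges3, the chaperone Hsp90ab1 and the repressor Ahrr. Only Hsp90ab1 varied, with log2 differences of 0.12 ± 0.14 and 0.07 ± 0.09 (SE) on its probe sets, neither at an unadjusted p under 0.05. Further genes of the receptor's battery could not be compared. Of the 5 listed, Aldh3a1, an aldehyde dehydrogenase, and Cyp2s1, another P450, were measured, and both were near-constant.

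The NRF2 battery, the other known route to Nqo1, showed 0 of 11 varying probe sets at an unadjusted p under 0.05. They belonged to 8 of 14 measured genes, 8 had positive and 3 negative differences, and their median was 0.06. The smallest p-values were those of the glutathione synthesis genes Gclm (-0.21 ± 0.15, SE, unadjusted p = 0.183 by limma) and Gclc (0.16 ± 0.15, unadjusted p = 0.296). Hmox1, the stress-inducible haem oxygenase, differed by -0.04 ± 0.09, with a 95% interval of -0.25 to 0.16. The 95% interval of the Nqo1 difference was 0.02 to 0.38, and the part of NRF2 in that difference was not tested.

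The genes listed as redox partners of P450 enzymes had differences of both signs. Cyb5a and Pgrmc1 of this list were near-constant and could not be compared. Of 5 varying probe sets of 3 genes, 1 was higher and 1 lower with the seasoned diet at an unadjusted p under 0.05, and none passed after adjustment. Por, the reductase that serves CYP1A2 and all other microsomal P450 enzymes, had a log2 difference of -0.53 ± 0.21 (SE, unadjusted p = 0.0347 by limma), opposite in sign to Cyp1a2. Its signals were 7.53 to 7.82 in the seasoned livers and 8.08 to 8.54 in 4 controls, with control 11 at 7.41, below every seasoned liver. Without control 11 the difference was -0.72 ± 0.10 (adjusted p = 0.154 by limma). The second Por probe set differed by -0.29 ± 0.15. Cyb5b, an outer mitochondrial cytochrome b5, differed by 0.14 ± 0.06 (unadjusted p = 0.0391 by limma, or 0.0714 without control 11) on one probe set and by 0.07 ± 0.08 (unadjusted p = 0.409) on the other.

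The clock list is given for scale, since it was chosen after an earlier report had found it to differ. Of its 16 varying probe sets, 5 were higher and 9 lower with the seasoned diet at an unadjusted p under 0.05 by limma, and 0 passed after adjustment, with a median log2 difference of -0.52. Nr1d2, a repressor, and Dbp had the smallest p-values, with -1.004 ± 0.175 and -2.46 ± 0.46 (SE). Without control 11, 2 probe sets of the list passed: Dbp at -2.85 ± 0.29 (adjusted p = 0.0446 by limma) and its relative Tef at -0.55 ± 0.04 (adjusted p = 0.0288). The other Tef probe sets did not pass (adjusted p = 0.0974 and 0.0781 by limma).

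**Figure D5:**
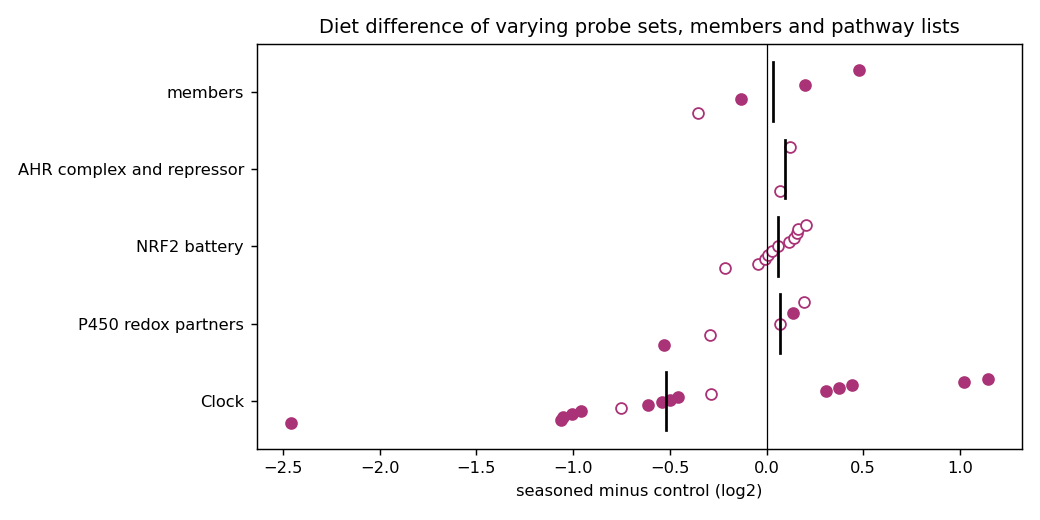
Seasoned minus control log2 difference (x axis) of each varying probe set of the members and of 4 pathway lists (rows); filled points are at an unadjusted p under 0.05 by limma, open points are not, and black bars are medians. The members lie between -0.35 and 0.48, and the clock list spreads from -2.46 to 1.14.

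Hepatocyte markers were high, and brain markers lay near the array medians apart from 1 probe set. The mean log2 level of the hepatocyte list (6 of 7 genes measured) was 13.32 to 13.39 in seasoned livers and 13.30 to 13.40 in controls. That of the brain list (4 of 5), read because the extraction text speaks of brain, was 6.32 to 6.47 and 6.32 to 6.40. Its only varying probe set was 1 of 3 for Mbp, myelin basic protein, with means of 7.38 in seasoned livers and 7.15 in controls and a difference of 0.23 ± 0.20 (SE, unadjusted p = 0.291 by limma). The pericentral list (6 of 7), which marks the zone richest in CYP1A2, was at 8.65 to 8.84 and 8.67 to 8.93, with 0 of 6 varying probe sets at an unadjusted p under 0.05 and a median difference of 0.00. Within the controls, though, some of these markers were highest in control 11 and lowest in control 14, as Cyp1a2 was, and others were not. Glul, glutamine synthetase, was at 10.71 in control 11 and 10.22 in control 14 on one probe set, and at 9.51 and 8.87 on another, the highest and the lowest control each time. On the remaining Glul probe set control 11 was again the highest control (9.998), but control 14 (9.57) was not the lowest. Oat, ornithine aminotransferase, was at 11.37 and 10.71 in the same livers, again the highest and the lowest control. Cyp2e1 was neither highest in control 11 (13.53, other controls 13.45 to 13.58) nor lowest in control 14 (13.46). Axin2 was highest in control 11 (6.83), but control 14 (6.77) lay above the lowest control (6.75). The part of these markers in the Cyp1a2 difference was not tested. The stellate cell list (8 of 8), a cell type known to express Cyp1b1, was at 7.06 to 7.13 and 7.06 to 7.22, with 0 of 3 varying probe sets at that p. Its other probe sets were near-constant, so this mean could hardly move. Of the 3, Col3a1 was at 10.18 in control 11, 9.29 to 9.53 in the other controls and 9.09 to 9.73 in seasoned livers. Dcn was at 7.62, 6.57 to 7.16 and 6.67 to 6.98. Lrat was not highest in control 11 (8.05, other controls 8.04 to 8.09). The part of cell composition in the members' differences was not tested further.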

How the data were processed

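Liver RNA of 10 rats was measured on a rat expression array with Affymetrix probe set names, with biotin-labelled cRNA made from 100 ng of total RNA, per the labels' protocols. For every array the deposited table lists log2 values of 31099 probe sets. The log base was read from the values (4.79 to 14.34), and the authors' summary and normalization methods are not given in the sources used here. No detection calls or depth are used, so precision is limited by the 10 arrays. The 57 control probe sets were set aside. The platform table assigned 20826 to 1 gene, 436 to several and 9780 to none, and current symbols came from the GRCr8 gene table by gene identifier (20764 matched).

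The diets were compared on all 31042 probe sets with limma 3.58.1 (lmFit and eBayes, two-sided, no covariate) in R 4.3.3, with Benjamini-Hochberg adjustment and calls at an adjusted p under 0.05. Near-constant probe sets enter limma's variance prior, so an exact permutation test of each difference stands beside it. Its p, adjusted over all probe sets, was 1 for every member. That adjusted p could not have passed. The smallest p the test can give, 0.00794, needs groups that do not overlap, which occurred in 239 of 31042 probe sets. These are too few to pass the adjustment at that p, so the adjusted value says nothing of the members. On simulated data for this comparison with 31042 probe sets, 50 varying ones changed at each size, the fit recovered 16% of changes of 0.25 log2 units, 34% of 0.5, 76% of 1 and 100% of 2, with 8 false calls. All sizes were planted together with independent noise, which eases the adjusted threshold for each change. In the livers no probe set was called, so these rates can overstate the recovery of such changes there.

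The members and lists were chosen with earlier results of these data known. Named genes are the members, the 2 varying genes of each list with the smallest p, and the 3 genes per member with the highest r. Chosen after seeing their values, beyond that rule, were Hmox1, Sds, Pck1, Apoa1, Clec4f, Glul, Oat, Cyp2e1, Axin2, Mbp, Tef and near-constant list genes. Col3a1, Dcn and Lrat were chosen in the same way. No pairs of arrays were identical (0 of 45). Alternatives were other probe set filters, normalizations, variance models, blocks, pairing and leaving out each liver.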

Additional observations from a re-analysis of the deposited data

How the results depend on the processing

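Cyp1a2, Nqo1 and the first Tiparp probe set kept their sign in all 32 alternatives run, and none of these passed after adjustment in any. Many alternatives could not change a sign. Other probe set filters, variance models and the assumed pairing leave a difference of means as it was. The block and leave-one-out fits of varying probe sets repeat the differences of the same fits of all probe sets. With any 1 liver left out, Cyp1a2 differed by 0.35 to 0.59, Nqo1 by 0.16 to 0.25, and Tiparp by -0.16 to -0.11 on its first and -0.45 to -0.23 on its second probe set. The smallest adjusted p was 0.0519, for Cyp1a2 with arrays centred on the median of varying probe sets. There the SE was 0.12 against 0.17 in the main fit, with a difference of 0.48 in both. Centring also gives near-constant probe sets a common offset, and these enter limma's variance prior. The second Tiparp probe set reversed within animals 1 to 7 (0.0201), and the cause was not tested. Of the 4 varying member probe sets, the 3 at an unadjusted p under 0.05 became 4 after arrays were centred on the median of varying probe sets (the second Tiparp probe set then had an unadjusted p of 0.0250 by limma), 0 within animals 8 to 14, where 2 and 3 livers remain, 2 to 3 with a liver left out of the fit of all probe sets, and 1 to 3 with a liver left out of the fit of varying probe sets. The count of all probe sets called, 0, became 13 in the fit of varying probe sets alone and 22 when the number set was a block there (added after seeing the data), 255 after centring, which adds a common offset to near-constant probe sets, and 4 within animals 1 to 7. With a liver left out it was 0 to 10 over all probe sets, with 10 only without control 11, and 0 to 84 in the fit of varying probe sets (added after seeing the data), with 84 without control 11, 21 without seasoned 10 and 18 without control 2. The labels do not say which animals were fed as pairs. An analysis by known pairs was therefore not possible. In an assumed pairing of neighbouring numbers, the unadjusted p by limma was 0.0400 for Cyp1a2 and 0.0614 for Nqo1 (0.0344 without pairs). For Tiparp it was 0.0229 on the first probe set and 0.0210 on the second (0.123 without pairs). None of the 4 passed after adjustment.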

Other observations

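Among cell type markers outside the comparisons above, the periportal list had 2 of 8 varying probe sets lower with the seasoned diet at an unadjusted p under 0.05 by limma: Sds, serine dehydratase, at -2.03 ± 0.45 (SE) and Pck1, a gluconeogenic enzyme, at -0.17 ± 0.07. Apoa1, which encodes an HDL apolipoprotein, was the only varying hepatocyte marker at that p (0.23 ± 0.07). The macrophage and Kupffer cell list had 0 of 6, with Clec4f, a Kupffer cell lectin, at 0.24 ± 0.20. The sinusoidal endothelium and cholangiocyte lists had 0 of 2 and 0 of 1 varying probe sets at that p. None of these passed after adjustment over all probe sets. In the 8 groups of 5 livers given by the 4 varying member probe sets and the 2 diets, a gap to the nearest liver above 0.71 of the group's range occurred 0 times.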
